A study of Mus musculus with 48 samples.

Results

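Cardiomyocytes with a C3H nucleus and exchanged C57 mitochondria (C3Hn:C57mt, 6 libraries) were compared with cardiomyocytes of the unexchanged C3H strain (C3Hn:C3Hmt, 6 libraries). These 12 libraries, of 48 in the study, were chosen by their titles, which give the genotype and a number, 13 to 18 for C3Hn:C57mt and 19 to 24 for C3Hn:C3Hmt, and no surgery word. All of them carry the label of a sham operation at day 3, and the study's other arm was ACF, the surgery of a volume overload model. The strains were C3H/HeN and C57BL/6J, and C3Hn:C57mt mice are mitochondrial-nuclear exchange (MNX) animals, so that both groups share the C3H nucleus and differ by label in the mitochondrial genome alone. Age, the hour of tissue collection and whether each library is a separate animal are not given in the sources used here, and p-values therefore measure the spread between these libraries. Per the labels' protocols, hearts were digested with collagenase after which the right ventricle and atria were removed, and RNA came from the isolated cardiomyocytes. The titles also carry a code, L2 for libraries 13 to 16 and L3 for libraries 17 and 18 and for all 6 C3Hn:C3Hmt libraries. What the code stands for is not stated, so it is treated as a possible batch that is nearly nested in the genotype.

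Mitochondrial DNA encodes a small set of respiratory chain proteins and the RNAs that translate them, while all other mitochondrial proteins come from nuclear genes. MNX mice place the nucleus of one strain in an egg that keeps the mitochondria of another, which separates the mitochondrial genome from the nuclear one. Several of the genes described below belong to the circadian clock, a feedback loop present in heart muscle cells: the activators Arntl (BMAL1) and Clock bind E-boxes and switch on the repressors Per, Cry, Ciart and Bhlhe41 and the nuclear receptors Nr1d1 and Nr1d2, which in turn repress Arntl through ROR elements. Dbp, Tef and Hlf, which the loop drives, activate genes through D-boxes, and Nfil3 represses through the same sites.

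Libraries held a total of 20.81 to 25.97 M counts in C3Hn:C57mt and 18.68 to 26.09 M in C3Hn:C3Hmt. Levels are given as log2 CPM, a gene's count relative to the scaled total of its library, which is not divided by gene length and is compared between libraries for 1 gene, not between genes. The 12 cardiomyocyte markers averaged a log2 CPM of 11.05 to 11.23 in C3Hn:C57mt and of 10.92 to 11.18 in C3Hn:C3Hmt. Fibroblast markers averaged 3.92 to 4.80 in C3Hn:C57mt and 4.35 to 6.00 in C3Hn:C3Hmt, and lymphocyte markers -2.33 to -2.04 in C3Hn:C57mt and -2.72 to -1.94 in C3Hn:C3Hmt. Every cell marker in the file had counts in at least 1 of the 12 libraries except the erythrocyte gene Epb4.2, which was at 0 in all 12. None of 16 library measures (depth, the share of the most abundant features, Rn45s and the marker lists) passed the exact 2-sided permutation test after adjustment over the 16 measures, where the smallest p that the 12 libraries allow is 0.00216. The closest was the ribosomal RNA precursor Rn45s, at a log2 CPM of 12.16 to 12.74 in C3Hn:C57mt and 11.92 to 12.28 in C3Hn:C3Hmt (exact p = 0.0152, adjusted p = 0.242).

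Some libraries stood apart from their group. Library 23 of C3Hn:C3Hmt had the highest fibroblast (6.00), macrophage (3.69) and endothelial (5.85) marker levels of the 12 and the lowest median Spearman correlation with its own group (0.98, against 0.987 to 0.993 for the other 11). Libraries 17 and 18, the L3 libraries of C3Hn:C57mt, stood apart from libraries 13 to 16 in a set of clock and glucocorticoid-induced genes. In the interferon and antigen presentation genes it was library 18 of C3Hn:C57mt and library 21 of C3Hn:C3Hmt that were high. Counts of called genes are given with and without libraries 17, 18 and 23.

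Of 12909 genes tested, 3 passed an adjusted p of 0.05 in the 12 libraries (0.0232% of genes tested), all of them higher in C3Hn:C57mt, and 0 were lower. They were Gm129, which RefSeq names Ciart, Prkcq and Cyfip2. At an unadjusted p below 0.05 there were 510 higher genes (3.95%) and 887 lower genes (6.87%).

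Ciart codes for a repressor that binds the BMAL1 and CLOCK complex. Its log2 CPM had a lowest, median and highest value of 2.39, 3.35 and 4.02 in C3Hn:C57mt, against 0.65, 1.21 and 2.47 in C3Hn:C3Hmt. The groups overlapped narrowly, since library 13 of C3Hn:C57mt lay just below library 21 of C3Hn:C3Hmt (2.47), while all the other C3Hn:C3Hmt libraries were at 1.45 or lower. The log2 fold change was 1.99 (SE 0.299, 95% interval 1.35 to 2.62), with an adjusted p of 0.0438 in edgeR's quasi-likelihood test.

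Prkcq encodes protein kinase C theta, a kinase best known from T cell receptor signalling and also present in striated muscle. Its log2 CPM was 3.24, 3.53 and 3.61 (lowest, median, highest) in C3Hn:C57mt, against 1.90, 2.45 and 2.91 in C3Hn:C3Hmt, with no overlap. The log2 fold change was 0.97 (SE 0.152, edgeR adjusted p = 0.0438). Cyfip2, a subunit of the WAVE complex that starts actin branching, was likewise without overlap, at 4.99, 5.21 and 5.45 in C3Hn:C57mt, against 4.31, 4.59 and 4.85 in C3Hn:C3Hmt. Its log2 fold change of 0.63 (SE 0.0969) had the same adjusted p as the others in edgeR, 0.0438.

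These 3 calls sat at the edge of the threshold. Without library 23 no gene passed in edgeR, with 874 genes at an unadjusted p below 0.05 (6.74%), although the log2 fold changes were 1.99 for Ciart, 0.91 for Prkcq and 0.58 for Cyfip2, each with an adjusted p of 0.0893. Leaving out library 13 gave 1 call (Ciart), library 20 gave 1 (Prkcq), library 21 gave 2 (Ciart and Cyfip2), and each of the other 8, libraries 17 and 18 among them, gave 0. DESeq2, the tool the study's protocol names, called 15 genes in the 12 libraries, 12 higher and 3 lower: the 3 genes above with Bhlhe41, Thbs4, Arhgap9, Per1, Usp2, Aldh1l1, Ppat, Synj2 and Cyp26b1 higher, and Cxcl14, Spon2 and Nfil3 lower.

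**Figure D1:**
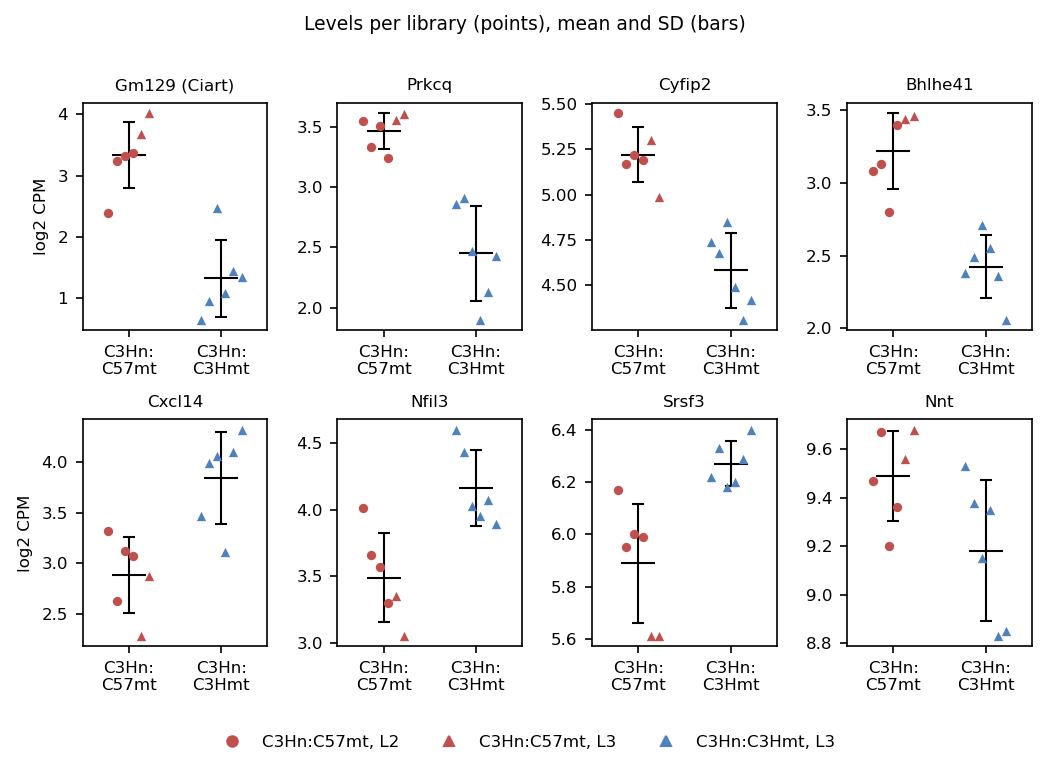
Level (log2 CPM) of 8 genes in each library, with C3Hn:C57mt left (red, circles for L2 and triangles for L3) and C3Hn:C3Hmt right (blue triangles), and bars for the mean and SD of 6 libraries. Prkcq, Cyfip2 and Bhlhe41 lay higher and Srsf3 lower in C3Hn:C57mt without overlap, whereas Nnt overlapped widely.

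Because so few genes passed, the genes with the smallest p in each direction are given as not past the threshold. Bhlhe41, a clock repressor that also binds E-boxes, came closest, at 2.80, 3.26 and 3.46 log2 CPM in C3Hn:C57mt, against 2.06, 2.44 and 2.71 in C3Hn:C3Hmt. The groups did not overlap, and the log2 fold change was 0.80 (SE 0.131, edgeR adjusted p = 0.0548). Thbs4, a matricellular thrombospondin, was at 2.52 to 2.85 in C3Hn:C57mt and 1.81 to 2.36 in C3Hn:C3Hmt (log2 fold change 0.57, SE 0.108), and Arhgap9, a GTPase activating protein, at 2.35 to 2.59 in C3Hn:C57mt and 1.31 to 2.08 in C3Hn:C3Hmt (0.68, SE 0.137). Both were without overlap, as were 33 higher genes (0.256% of genes tested) and 24 lower genes (0.186%) in all.

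On the lower side stood Cxcl14, a chemokine, at 2.28, 2.97 and 3.32 log2 CPM in C3Hn:C57mt, against 3.11, 4.02 and 4.32 in C3Hn:C3Hmt, where only library 22 (3.11) reached into the other group. Its log2 fold change was -1.0 (SE 0.201, edgeR adjusted p = 0.232). Srsf3, a splicing factor of the SR family, had values of 5.61 to 6.17 in C3Hn:C57mt and 6.18 to 6.40 in C3Hn:C3Hmt and a log2 fold change of -0.38 (SE 0.0945). Sox18, a transcription factor of endothelial cells, had -0.62 (SE 0.152), Cmtm3 had -0.69 (SE 0.173), and Nfil3, described with the clock, had -0.68 (SE 0.156). The adjusted p of these 4 genes lay between 0.372 and 0.390 in edgeR. Endothelial markers as a list were lower in C3Hn:C57mt too, with a median log2 fold change of -0.32, and their part in the Sox18 difference was not tested. In bulk RNA fewer cells of a type and less RNA per cell cannot be told apart.

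The called genes were also measured in the other genotypes of the same set of titles, whose libraries did not enter the comparison. Prkcq averaged a log2 CPM of 2.65 ± 0.123 in C57n:C3Hmt and 2.56 ± 0.25 in C57n:C57mt (SD, n = 6 each), close to the 2.45 ± 0.4 of C3Hn:C3Hmt and below the 3.47 ± 0.147 of C3Hn:C57mt. Cyfip2 lay higher on the C57 nucleus, at 7.82 ± 0.166 in C57n:C3Hmt and 7.55 ± 0.419 in C57n:C57mt, against 5.22 ± 0.151 in C3Hn:C57mt and 4.58 ± 0.206 in C3Hn:C3Hmt. Thbs4 lay lower there, at 0.40 ± 0.289 in C57n:C3Hmt and 0.29 ± 0.293 in C57n:C57mt. All C57n:C57mt libraries carry the code L8. Of C57n:C3Hmt, libraries 9 to 12 carry L2 and libraries 7 and 8 carry L8, so the code is nearly nested in the genotype on the C57 nucleus too. The differences in level between the nuclei were not tested.

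The promoters of 4 clock genes are shown because Ciart was the largest call and its E-boxes are the sites through which the loop is known to act. RefSeq promoter windows (GRCm38.p6, 250 bases before to 50 after a gene's start, 300 in all, 5′ to 3′ on the gene's strand) were found for 17 of the 20 clock genes listed. Capitals mark the E-box CACGTG in Ciart, Bhlhe41 and Per1, and in Arntl the core of a ROR element, TAGGTCA, searched on both strands. None of these motifs overlapped another.
Ciart, chr3:95882179-95882478, minus strand: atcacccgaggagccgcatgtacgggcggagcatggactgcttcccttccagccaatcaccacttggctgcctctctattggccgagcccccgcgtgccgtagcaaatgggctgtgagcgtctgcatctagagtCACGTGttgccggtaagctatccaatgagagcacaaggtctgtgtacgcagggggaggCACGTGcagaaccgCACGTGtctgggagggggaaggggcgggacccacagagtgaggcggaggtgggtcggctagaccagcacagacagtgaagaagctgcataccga
Bhlhe41, chr6:145865371-145865670, minus strand: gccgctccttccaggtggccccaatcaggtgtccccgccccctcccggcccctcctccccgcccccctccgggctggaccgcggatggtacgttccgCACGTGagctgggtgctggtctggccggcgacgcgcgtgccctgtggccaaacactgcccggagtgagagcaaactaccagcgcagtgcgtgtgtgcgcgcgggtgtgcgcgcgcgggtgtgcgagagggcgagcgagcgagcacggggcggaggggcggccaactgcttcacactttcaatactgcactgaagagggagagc
Per1, chr11:69098699-69098998, plus strand, the first of 2 windows: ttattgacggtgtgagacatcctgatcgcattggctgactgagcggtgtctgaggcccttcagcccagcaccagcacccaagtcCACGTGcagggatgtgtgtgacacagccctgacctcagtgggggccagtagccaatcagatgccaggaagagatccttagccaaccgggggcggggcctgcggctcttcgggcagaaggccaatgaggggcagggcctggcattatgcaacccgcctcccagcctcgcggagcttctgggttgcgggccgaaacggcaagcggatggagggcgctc
Arntl, chr7:113207261-113207560, plus strand, the second of 2 windows: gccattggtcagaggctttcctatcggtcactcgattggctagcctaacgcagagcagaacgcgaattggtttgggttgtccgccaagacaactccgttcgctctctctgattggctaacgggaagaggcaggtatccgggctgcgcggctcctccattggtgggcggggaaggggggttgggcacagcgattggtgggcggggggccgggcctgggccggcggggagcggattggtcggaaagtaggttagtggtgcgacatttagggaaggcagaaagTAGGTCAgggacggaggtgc

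The Ciart window holds 3 E-boxes, and 25 of the 27025 genes with a window (0.0925%) hold 3 or more. At least 1 E-box stood in a window of 5 of the 17 clock genes (29.4%), the others being Cry1 and Tef, and in 8.09% of all genes. The D-box (TTATGTAA or TTACGTAA, both strands) was found in Per3 alone among the 17, and in 1.23% of all genes. The ROR core was found in Arntl and Nfil3, and in 2.97% of all genes. These matches are letters in a window and not measured sites. The windows of Prkcq and Cyfip2 held none of the 3 motifs.

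All 20 clock genes listed were tested. In the 12 libraries 9 were higher and 4 lower in C3Hn:C57mt at an unadjusted p below 0.05, beside 3.95% and 6.87% of all genes, and 1 was called, Ciart, beside 0.0232%. The list's median log2 fold change was 0.33, against -0.01 over all genes tested. Without library 23 the median was 0.37, with 10 genes higher and 4 lower, beside 3.08% and 3.67% of all genes in that fit. Among the L3 libraries it was 0.51, with 10 higher and 3 lower, beside 4.88% and 8.47% of all genes. With the L2 libraries of C3Hn:C57mt alone it was 0.26, with 7 higher and 4 lower, beside 1.45% and 2.46%. These comparisons share libraries and are not independent, and the list was chosen with earlier results of these data known. Within the list the activators and Nfil3 lay lower, and most repressors and the D-box activators lay higher.

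Arntl, the activator without which the loop stops, had a log2 CPM of 3.67, 3.10, 3.30 and 2.83 in the L2 libraries of C3Hn:C57mt and of 1.18 and 0.60 in its L3 libraries, against 3.49, 3.60 and 4.45 (lowest, median, highest) in C3Hn:C3Hmt. All but library 13 of C3Hn:C57mt were below every C3Hn:C3Hmt library, and the L3 pair was far below the rest. Its log2 fold change was -1.07 (SE 0.386, unadjusted p = 0.0142, edgeR adjusted p = 0.428) over the 12 libraries, and -0.60 with the L2 libraries of C3Hn:C57mt alone. Clock, its partner, was at 4.27, 5.01 and 5.27 in C3Hn:C57mt, against 5.03, 5.26 and 5.48 in C3Hn:C3Hmt, with a log2 fold change of -0.34 (SE 0.136), and here too library 18 was lowest. With the L2 libraries of C3Hn:C57mt alone Clock had -0.17 (unadjusted p = 0.103). Npas2, which can stand in for Clock, had -0.39 (SE 0.238), and its groups overlapped.

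Among the repressors, Per1 had a log2 CPM of 5.11, 5.46 and 5.70 in C3Hn:C57mt, against 4.13, 4.65 and 5.12 in C3Hn:C3Hmt, and only library 17 (5.11) lay below a C3Hn:C3Hmt library. The log2 fold change was 0.73 (SE 0.154, unadjusted p = 0.000249, edgeR adjusted p = 0.232). Unlike Ciart and Dbp, Per1 was lowest within C3Hn:C57mt in the L3 libraries (5.11 and 5.18). Per2 was at 2.49 to 3.61 in C3Hn:C57mt and 1.19 to 3.13 in C3Hn:C3Hmt (log2 fold change 0.82, SE 0.307), and Per3 at 3.33 to 4.43 in C3Hn:C57mt and 2.40 to 4.10 in C3Hn:C3Hmt (0.53, SE 0.264). Both spread widely within C3Hn:C3Hmt, where libraries 19 and 20 were lowest. With the L2 libraries of C3Hn:C57mt alone Per2 had 0.63 (unadjusted p = 0.0942).

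The log2 fold changes of the cryptochromes had opposite signs. Cry2 was at 4.86 to 5.77 in C3Hn:C57mt and 4.49 to 4.97 in C3Hn:C3Hmt, a log2 fold change of 0.53 (SE 0.129, unadjusted p = 0.00086). Cry1 had 2.20 to 2.64 in C3Hn:C57mt and 2.40 to 2.89 in C3Hn:C3Hmt, a log2 fold change of -0.27 (SE 0.112, unadjusted p = 0.0273). Bhlhe40, the close relative of Bhlhe41, had 0.15 (SE 0.14).

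Of the nuclear receptors, Nr1d1 (REV-ERB alpha) was at 6.33, 6.48 and 6.62 log2 CPM in C3Hn:C57mt, against 6.21, 6.48 and 6.62 in C3Hn:C3Hmt. Its log2 fold change was 0.04 with a 95% interval of -0.12 to 0.19, while its relative Nr1d2 had 0.41 (SE 0.143, unadjusted p = 0.0112), and 0.25 (unadjusted p = 0.104) with the L2 libraries of C3Hn:C57mt alone. Rora, which activates at the elements that REV-ERB occupies, had -0.13 (SE 0.278).

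Dbp, the output activator, was at 4.78, 5.24, 5.73 and 5.86 in the L2 libraries and 6.55 and 6.63 in the L3 libraries of C3Hn:C57mt, against 3.66, 4.68 and 4.96 (lowest, median, highest) in C3Hn:C3Hmt. Only library 13 was within the range of C3Hn:C3Hmt. The log2 fold change was 1.38 (SE 0.295, unadjusted p = 0.000263, edgeR adjusted p = 0.232), and 0.90 (unadjusted p = 0.00287) with the L2 libraries of C3Hn:C57mt alone. Tef and Hlf, of the same family, had 0.51 (SE 0.141) and 0.26 (SE 0.143), and 0.27 and 0.05 with those L2 libraries alone. The opposing repressor Nfil3 had values of 3.05, 3.46 and 4.01 in C3Hn:C57mt, against 3.89, 4.05 and 4.60 in C3Hn:C3Hmt. Usp2, a deubiquitinase gene with a strong daily rhythm in many tissues, was at 6.86 to 7.34 in C3Hn:C57mt and 6.37 to 6.84 in C3Hn:C3Hmt without overlap (0.46, SE 0.0974). Non-overlap in the higher direction was seen in 2 of the 20 clock genes, Bhlhe41 and Usp2, and in 0.256% of all genes.

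**Figure D2:**
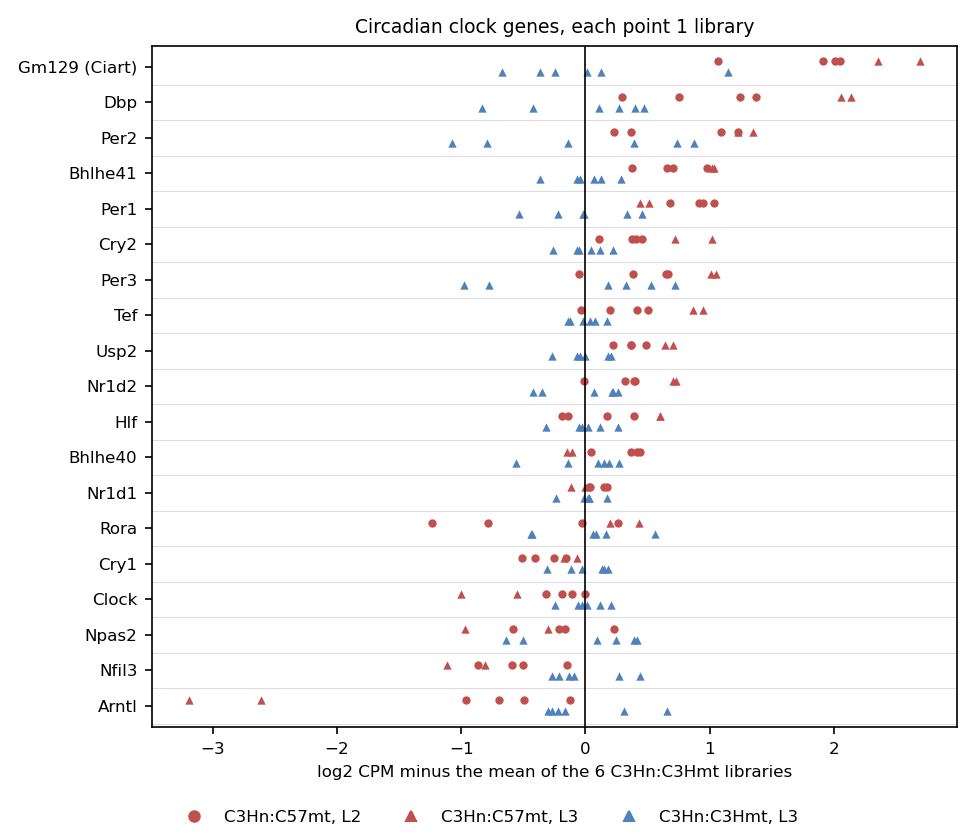
Clock genes of the list by log2 fold change, each library as its log2 CPM minus the mean of the 6 C3Hn:C3Hmt libraries, with C3Hn:C57mt above C3Hn:C3Hmt in each row. Ciart, Dbp and Bhlhe41 lay to the right and Nfil3 to the left in nearly all C3Hn:C57mt libraries, and the L3 pair of C3Hn:C57mt (red triangles) was at the far end for Arntl, Dbp, Ciart and Tef.

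Clock gene levels varied as much within other genotypes. In C57n:C3Hmt Ciart ran from 0.39 to 3.96 log2 CPM and in C57n:C57mt from -0.15 to 3.94, ranges wider than those of either C3Hn group. Arntl ran from 0.10 to 3.78 in C57n:C3Hmt and from 0.66 to 4.52 in C57n:C57mt. Over these 12 libraries, which share none with the comparison above, C57n:C3Hmt minus C57n:C57mt gave log2 fold changes of 0.04 (SE 0.806) for Ciart and -0.63 for Arntl, and a clock list median of 0.17. Sham libraries of another set of titles, 3 titled C3H_MNX and 3 titled C3H_wt, had a list median of -0.20, with 2.96 ± 0.649 for Arntl in C3H_MNX and 1.57 ± 0.544 in C3H_wt (SD, n = 3 each), the opposite order to that described here. The genotype label of those C3H_MNX libraries is C57n:C3Hmt, which goes against their title, so no direction by mitochondrial strain is drawn from them. Cyfip2 averaged 4.82 ± 0.157 there, nearer C3Hn:C57mt (5.22) and C3Hn:C3Hmt (4.58) than C57n:C3Hmt (7.82) and C57n:C57mt (7.55). Thbs4 averaged 2.78 ± 0.173, against 2.67, 2.1, 0.4 and 0.29 in the same order. Both genes were thus at the level of the nucleus named in the title. Which of the names is right was not tested.

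The L code was examined in several fits. All C3Hn:C3Hmt libraries carry L3, so the genotypes can be set against each other within 1 code only through libraries 17 and 18. Among the L3 libraries, 2 of C3Hn:C57mt and 6 of C3Hn:C3Hmt, 63 of 13488 genes were called (0.467%), of which 37 were higher (0.274%) and 26 lower (0.193%). With the 4 L2 libraries of C3Hn:C57mt against the same 6 C3Hn:C3Hmt libraries, edgeR called 0 of 13010 genes, with 508 at an unadjusted p below 0.05 (3.90%), and there code and genotype cannot be told apart. Within C3Hn:C57mt, L2 minus L3 gave 106 of 13244 genes called (0.800%), 72 higher and 34 lower in L2. With the L code as a covariate 150 genes were called (1.16%), 73 higher and 77 lower in C3Hn:C57mt, and 907 genes were higher (7.03%) and 1426 lower (11.0%) at an unadjusted p below 0.05. That fit called 6 clock genes higher and 3 lower, beside 0.565% and 0.596% of all genes. Its genotype difference again sets libraries 17 and 18 against the 6 C3Hn:C3Hmt libraries, and the L2 libraries add to the estimate of spread. Arntl had a log2 fold change of -2.99 and Ciart of 2.43 both there and among the L3 libraries. The 150 calls are thus not a genotype difference over all 12 libraries. Libraries 17 and 18 enter all of these except the L2 comparison, so the counts are not independent. They also rest on single libraries: without library 17 the L3 comparison called 22 genes, without library 18 it called 3, without library 20 it called 30, without library 21 it called 31, and without library 23 it called 104.

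The genes called among the L3 libraries included 6 of the 20 clock genes, beside 0.467% of all genes. Ciart (log2 fold change 2.43, SE 0.345, edgeR adjusted p = 0.0121), Dbp (2.03, SE 0.258), Tef (0.89), Cry2 (0.86) and Bhlhe41 (1.02) rose and Arntl fell (-2.99, SE 0.328, edgeR adjusted p = 0.0041). Klhl38, a muscle gene of the Kelch family singled out after its values were seen, had the smallest p, at 5.20 and 5.31 log2 CPM in libraries 17 and 18, 3.51 to 4.30 in the L2 libraries and 3.11 to 3.73 in C3Hn:C3Hmt (1.83, SE 0.134, edgeR adjusted p = 0.000291).

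Of the genes known to be induced by glucocorticoids, some were high and others low in libraries 17 and 18. L2 minus L3 within C3Hn:C57mt called 3 of them higher in L2 and 4 lower, beside 0.544% and 0.257% of all genes. Zbtb16, a transcription factor gene strongly induced by glucocorticoids, was at 5.81 and 5.79 log2 CPM in those libraries, 2.92 to 3.74 in the L2 libraries of C3Hn:C57mt and 2.81 to 4.05 in C3Hn:C3Hmt. Among the L3 libraries it rose by 2.19 on the log2 scale (SE 0.23, edgeR adjusted p = 0.0041), and L2 minus L3 within C3Hn:C57mt gave -2.38 (SE 0.149, adjusted p = 4.88e-05). In this gene the L2 libraries overlapped C3Hn:C3Hmt, and the L3 pair did not.

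Ucp3, the muscle uncoupling protein that PPAR factors induce, was at 6.42 and 6.75 in libraries 17 and 18, against 4.16 to 4.98 in the L2 libraries and 4.26 to 4.99 in C3Hn:C3Hmt (L3 log2 fold change 1.94, SE 0.165, edgeR adjusted p = 0.000701). Angptl4, a secreted lipoprotein lipase inhibitor, was at 4.02 and 3.91 in that pair, 0.88 to 2.01 in the L2 libraries and 1.19 to 2.46 in C3Hn:C3Hmt (2.10, SE 0.23). Klf15, a metabolic regulator under glucocorticoid control, was at 5.40 and 5.54, against 4.78 to 5.11 in the L2 libraries and 4.49 to 4.83 in C3Hn:C3Hmt. In contrast the cell cycle inhibitor Cdkn1a was low in the pair, at 2.68 and 3.06, against 3.42 to 4.77 in the L2 libraries and 3.95 to 4.65 in C3Hn:C3Hmt (-1.53, SE 0.209, edgeR adjusted p = 0.0114).

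By list, the L3 comparison called 3 of 20 glucocorticoid-induced genes higher (Zbtb16, Klf15 and Angptl4) and 2 lower (Cdkn1a and Ddit4), and 2 of 20 PPAR targets higher (Ucp3 and Angptl4), beside 0.274% and 0.193% of all genes. Over the 12 libraries edgeR called no member of these lists, with 4 glucocorticoid-induced genes and 2 PPAR targets higher and 1 glucocorticoid-induced gene lower at an unadjusted p below 0.05, and DESeq2 called 1, Per1 (adjusted p = 0.0052). Tcap, the titin cap protein of the Z-disc, was called among the L3 libraries as 1 of 24 sarcomere genes, at 10.70 and 11.05 in the pair, 9.77 to 10.28 in the L2 libraries and 9.13 to 9.84 in C3Hn:C3Hmt. Chac1, a gene of the integrated stress response, was at 2.31 and 2.57 in the pair, 0.52 to 1.25 in the L2 libraries and -0.01 to 1.14 in C3Hn:C3Hmt. Sgk1, a kinase gene induced by glucocorticoids, was at 4.46 and 4.95 in the pair and reached 6.36 in the L2 libraries, with 5.44 to 6.41 in C3Hn:C3Hmt. L2 minus L3 called it (1.33, edgeR adjusted p = 0.00694), Ddit4 (1.47, adjusted p = 0.0489) and Errfi1 (1.47, adjusted p = 0.0328) higher in L2. Fkbp5, another induced gene, was at 2.99 and 3.52 in the pair, 2.70 to 3.80 in the L2 libraries and 3.06 to 3.49 in C3Hn:C3Hmt. Tsc22d3 lay within 5.98 to 6.12 in all of C3Hn:C57mt and 5.84 to 6.04 in C3Hn:C3Hmt.

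**Figure D3:**
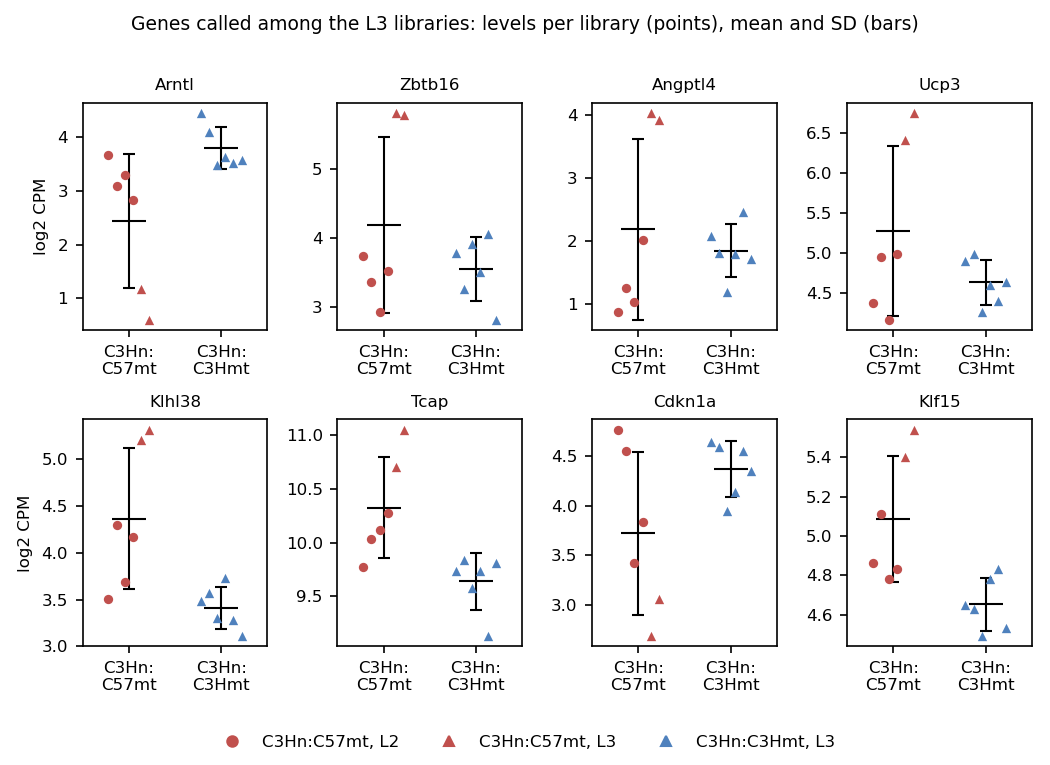
Level (log2 CPM) per library of 8 genes called among the L3 libraries, with C3Hn:C57mt left (red circles for L2, red triangles for L3) and C3Hn:C3Hmt right (blue triangles), and bars for mean and SD. In Zbtb16, Angptl4 and Ucp3 the L2 libraries overlapped C3Hn:C3Hmt and the 2 L3 libraries of C3Hn:C57mt stood above both; in Arntl and Cdkn1a the same pair stood below.

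Nuclear genes for mitochondrial proteins differed little. No member of the lists for complex I (37 genes), complexes II to V (41 genes) and the mitochondrial ribosome (76 genes) had an unadjusted p below 0.05 in the 12 libraries, beside 10.8% of all genes. Median log2 fold changes were 0.08 in each of these lists, with extremes of -0.08 and 0.32 in complex I, and 34 of its 37 genes were positive, against 6242 of the 12909 genes tested. The complex I core subunit Ndufs1 had the smallest p, with a log2 CPM of 9.28 to 9.79 in C3Hn:C57mt and 8.74 to 9.68 in C3Hn:C3Hmt (0.32, SE 0.156). The medians followed the libraries used, at 0.26, 0.29 and 0.20 among the L3 libraries and -0.02, -0.03 and 0.01 with the L2 libraries of C3Hn:C57mt alone.

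Of the mitochondrially encoded genes the file held 3 of 15 looked for: Cytb, Cox2 and Atpase6. Together they took 6.20% to 16.3% of a library's counts in C3Hn:C57mt and 7.78% to 15.8% in C3Hn:C3Hmt, with Wilson 95% intervals at most 0.016 percentage points either way, which cover counting error only. Cytb had a log2 CPM of 14.23, 14.73 and 16.16 in C3Hn:C57mt, against 14.57, 15.00 and 15.97 in C3Hn:C3Hmt, and library 15 was the highest of its group. The log2 fold changes were -0.24 (SE 0.334) for Cytb, -0.25 (SE 0.321) for Cox2 and -0.29 (SE 0.35) for Atpase6, all within the spread between libraries. On the C57 nucleus, C57n:C3Hmt minus C57n:C57mt gave 0.97 (SE 0.221) for Cytb with an unadjusted p of 0.000579 and an edgeR adjusted p of 0.355. The L code is nearly nested in the genotype there too, and its part in this value was not tested.

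Nnt, the transhydrogenase gene of which C57BL/6J carries a deletion, lies in the nuclear genome that both groups share. It was at 9.20, 9.52 and 9.68 log2 CPM in C3Hn:C57mt, against 8.83, 9.25 and 9.53 in C3Hn:C3Hmt. The groups overlapped, and the difference was 0.29 on the log2 scale (SE 0.126) at an adjusted p of 0.453 in edgeR. The file gives no counts by exon. Lrpprc, which stabilises mitochondrial messenger RNA, had the smallest p of the biogenesis list (0.35, SE 0.132, unadjusted p = 0.0171).

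In the fuel metabolism lists most log2 fold changes were small and positive, with no call in edgeR. The fatty acid uptake and oxidation list had a median log2 fold change of 0.16, with 25 of 27 genes positive and none below an unadjusted p of 0.05. The tricarboxylic acid cycle and ketone or amino acid oxidation list had a median log2 fold change of 0.22, with all 29 genes positive and none below an unadjusted p of 0.05. In the glycolysis and glycogen list 6 of 32 genes were higher at that p (3.95% of all genes) and none lower, with a median of 0.18. They included Phka1, a regulatory subunit of phosphorylase kinase, at 6.28 to 6.62 in C3Hn:C57mt and 5.75 to 6.21 in C3Hn:C3Hmt without overlap (0.31, SE 0.0843), the pyruvate dehydrogenase phosphatase Pdp1 (0.31, SE 0.0983), Pygb, a glycogen phosphorylase (0.29, SE 0.107), and the phosphofructokinase genes Pfkm (0.30, SE 0.137) and Pfkp (0.25, SE 0.106). Without library 23 the medians were 0.09 in the fatty acid list, 0.14 in the tricarboxylic acid cycle list and 0.11 in the glycolysis list. There 3 of the glycolysis genes had such a p, beside 3.08% of all genes in that fit. Cardiomyocyte markers had a median of 0.11 in the 12 libraries and library 23 had the lowest of their mean levels (10.92, with library 24), and their part in these small shifts was not tested.

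Contractile and stress genes were close between the groups. Myh6 and Myh7, the fast and slow myosin heavy chains, had log2 fold changes of 0.08 (95% interval -0.22 to 0.39) and 0.11 (-0.09 to 0.32). The natriuretic peptide genes Nppa and Nppb, markers of cardiac load, had 0.00 (-0.48 to 0.49) and -0.17 (-0.54 to 0.19), and the skeletal actin gene Acta1 had 0.22 (-0.21 to 0.65). Nppb was at 6.99 and 6.84 in libraries 17 and 18, 7.25 to 7.95 in the L2 libraries and 7.41 to 7.99 in C3Hn:C3Hmt. Among the sarcomere genes 3 of 24 were higher at an unadjusted p below 0.05 (3.95% of all genes), namely Tcap (0.72, SE 0.19), the leiomodin Lmod2 (0.37, SE 0.103) and the M-band gene Myom2 (0.61, SE 0.22).

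Extracellular matrix genes and markers of fibroblasts, macrophages, the epicardium and endothelium lay lower in C3Hn:C57mt, with no call in edgeR. In the extracellular matrix list 24 of 35 genes were lower at an unadjusted p below 0.05 (6.87% of all genes) and 2 were higher, with a median log2 fold change of -0.55. Fibroblast markers had 8 of 10 lower (median -0.53), macrophage markers 7 of 10 (median -0.72), epicardial and mesothelial markers 5 of 6 (median -0.84) and endothelial markers 4 of 10 (median -0.32).

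The shift was smaller without library 23. Then 12 of the 35 matrix genes (median -0.27), 2 of 10 fibroblast (-0.29), 3 of 10 macrophage (-0.36), 2 of 6 epicardial (-0.39) and 2 of 10 endothelial markers (-0.23) were lower at an unadjusted p below 0.05, beside 3.67% of all genes in that fit. The fibrillar collagen gene Col3a1 was at 5.13, 5.73 and 6.14 log2 CPM in C3Hn:C57mt, against 5.81, 6.19 and 7.89 in C3Hn:C3Hmt. Its log2 fold change was -0.94 (SE 0.311) with library 23 and -0.44 without it. Fbn1, the fibrillin gene, had -1.13 (SE 0.402) and -0.41, and the acute phase gene Serpina3n, which reached 4.84 in library 23 and 0.97 to 1.93 in C3Hn:C57mt, had -1.68 (SE 0.555) and -0.55. The macrophage receptor genes Csf1r and Mrc1 had -0.90 (SE 0.259) and -1.0 (SE 0.294), and -0.55 and -0.59 without library 23.

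The L3 pair of C3Hn:C57mt lay at the low end of some of these lists and not of others. Endothelial markers averaged 4.74 in library 17 and 4.85 in library 18, against 4.94 to 5.37 in libraries 13 to 16. Macrophage markers were lowest of the 12 in library 17 (1.41), but library 18 (2.47) was the highest of C3Hn:C57mt. Fibroblast markers averaged 3.92 in library 17, the lowest of the 12, and 4.35 in library 18, against 4.30 to 4.80 in libraries 13 to 16. L2 minus L3 within C3Hn:C57mt called 7 of 35 matrix genes higher in L2 and none lower, beside 0.544% and 0.257% of all genes, Col3a1 (0.67), Fbn1 (0.90) and the collagen VI genes among them. Ctgf, a matricellular gene, went the other way from most of its list, with 6.15 to 7.19 in C3Hn:C57mt and 6.21 to 6.83 in C3Hn:C3Hmt (0.44, SE 0.154).

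**Figure D4:**
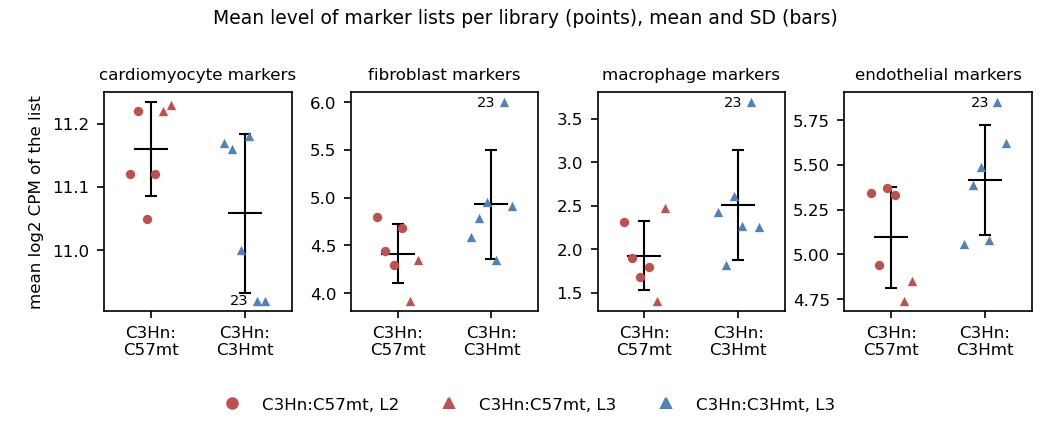
Mean log2 CPM of 4 marker lists in each library, with C3Hn:C57mt left and C3Hn:C3Hmt right, bars for mean and SD, and library 23 numbered. Library 23 was highest for fibroblast (6.00), macrophage (3.69) and endothelial (5.85) markers and among the 2 lowest for cardiomyocyte markers (10.92).

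Interferon response genes were high in 1 library of each group, with no call between the groups. Of 32 tested, 1 had an unadjusted p below 0.05, the lower gene Ifi27l2a, and the list median was -0.17. Igtp, an interferon-induced GTPase, was at 5.62 in library 18 of C3Hn:C57mt and 2.72 to 3.19 in the other 5, against 7.78 in library 21 of C3Hn:C3Hmt and 2.67 to 3.10 in the other 5. Class II antigen presentation genes had the same pair on top, with the invariant chain gene Cd74 at 5.65 in library 18 and 2.58 to 3.28 in the other C3Hn:C57mt libraries, against 4.10 in library 21 and 2.82 to 3.29 in the other C3Hn:C3Hmt libraries. In all, 24 of the 32 interferon genes were highest within C3Hn:C57mt in library 18 and 25 were highest within C3Hn:C3Hmt in library 21. The 5 class II genes tested had a median log2 fold change of 0.79 with 0 at an unadjusted p below 0.05. Lymphocyte markers were at -2.33 in library 18 and -2.21 in library 21, within the range of the other libraries, and macrophage markers were at 2.47 in library 18 and 2.61 in library 21. No lymphocyte marker had enough counts to be tested, so levels this near the floor cannot show whether lymphocytes differed. The part of these cell types in the interferon gene levels was not tested.

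**Figure D5:**
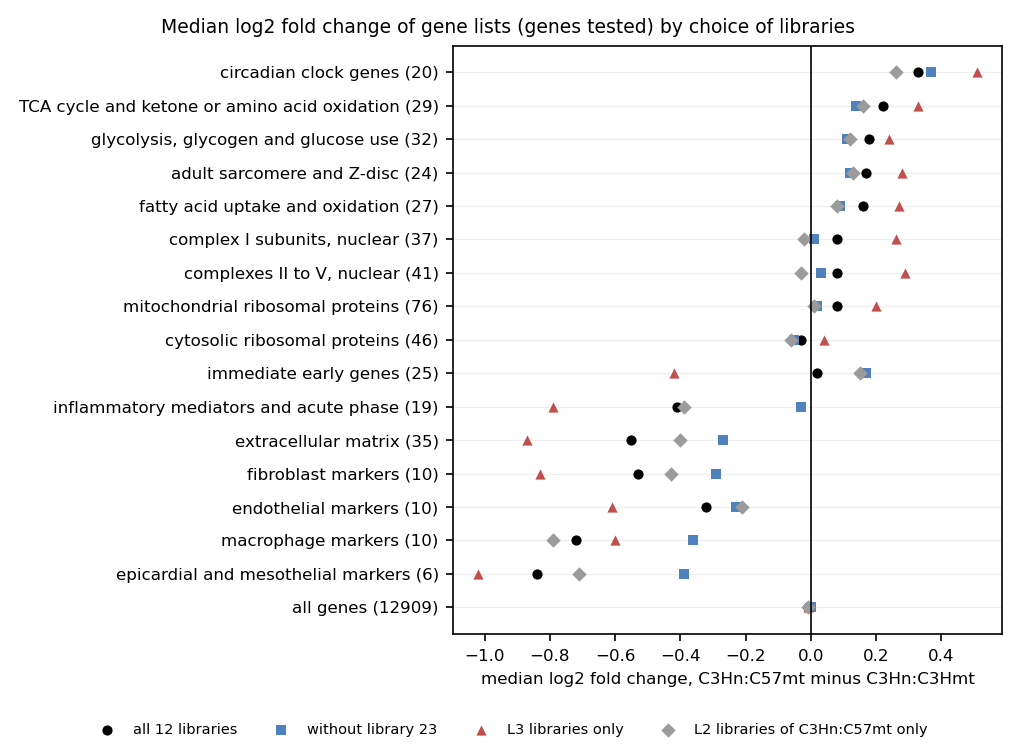
Median log2 fold change (C3Hn:C57mt minus C3Hn:C3Hmt) of 16 gene lists and of all genes, with the number of genes tested in brackets, for all 12 libraries and for 3 other choices of libraries. Clock genes kept positive medians of 0.26 to 0.51, matrix and non-muscle markers negative ones, and the respiratory complex lists moved to -0.02 and -0.03 with the L2 libraries of C3Hn:C57mt alone.

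The reciprocal exchange and a test of the difference were examined last. On the C57 nucleus, C57n:C3Hmt minus C57n:C57mt gave 1 called gene of 12897 (0.00775%), Angptl4, which fell (-1.92, SE 0.238, edgeR adjusted p = 0.0131), at 0.70 ± 0.4 in C57n:C3Hmt, against 2.54 ± 0.474 in C57n:C57mt (SD, n = 6 each). The L code is nearly nested in the genotype on that nucleus too, and its part in these values and in the difference between the nuclei was not tested. At an unadjusted p below 0.05 there were 1151 genes (8.92%). None of the 20 clock genes was among them, and 9 of 11 macrophage, 5 of 10 fibroblast and 6 of 6 epicardial markers and 19 of 32 interferon genes were lower in C57n:C3Hmt at that p, beside 6.26% of all genes. Whether the effect of the mitochondria, C57 minus C3H, differed between the nuclei was tested over 24 libraries, and edgeR called 0 of 13395 genes, with 2188 at an unadjusted p below 0.05 (16.3%), while DESeq2 called 294. Prkcq had the difference 1.05 (SE 0.202), Cyfip2 0.85 (SE 0.189) and Cxcl14 -1.55 (SE 0.316), each at an adjusted p of 0.0817 in edgeR. In the other set of titles, C3H_MNX sham minus C3H_wt sham called 3 of 12607 genes (0.0238%): Zfp709 higher (0.00793%), and Bpifb4 and Zbtb16 lower (0.0159%). There Prkcq was at 2.49 ± 0.158 in C3H_MNX and 2.66 ± 0.0247 in C3H_wt, and Cyfip2 at 4.82 ± 0.157 in C3H_MNX and 4.96 ± 0.43 in C3H_wt (SD, n = 3 each), so neither mean was higher in C3H_MNX.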

How the data were processed

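Cardiomyocyte RNA was sequenced as polyadenylated, strand-marked libraries, per the labels' protocols. The deposited table holds estimated counts per gene for 30743 gene symbols and 48 libraries, and 16.4% of its values for these 12 libraries are not whole numbers. Per the submitters' processing notes, the tools were RSEM 1.2.0, Bowtie and CASAVA 1.8.2 and the build was mm9, with no role given for any, and per the labels' protocols the provider mapped reads with its own algorithm and the authors called genes with DESeq2. Related or overlapping genes can share estimated counts, and how strand was counted is not given in the sources used here.

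Values were rounded to whole numbers, low genes were removed with edgeR's filterByExpr, and TMM factors scaled the libraries. Genes were tested with edgeR 4.0.16's quasi-likelihood test in R 4.3.3, on the libraries compared, with Benjamini-Hochberg adjustment over all genes tested and a threshold of 0.05. DESeq2 1.42.0 was an alternative. A prior count of 2 was used for log2 CPM. Library measures were compared with an exact permutation test, 2-sided, over 924 splits. On simulated counts of the 12-library comparison (12909 genes), 64% of genes changed 1.5-fold, 92% changed 2-fold and 100% changed 4-fold were called. For the L3 comparison (13488 genes) these were 24%, 80% and 98%. Of the genes called, 4.57% and 6.62% had not been changed. The simulation changed 75 genes 1.5-fold, 75 genes 2-fold and 50 genes 4-fold at once. Benjamini-Hochberg adjustment is more lenient when many genes change, so these rates can overstate recovery where few genes are called. The simulation changed no gene of very low level and held no effect of the L code and no outlying library, so these rates do not cover those features of the data.

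Named genes were the largest called changes (up to 12 a direction, mean log2 CPM of at least 2, same sign without library 23 and among L3 libraries), up to 4 called members of each of 41 lists, a set of cardiac and mitochondrial genes always given, and, with under 5 calls in a direction, the 5 with the smallest p. Predicted symbols were passed over. Other genes named, all from the lists except Klhl38 and the genes DESeq2 called, were chosen after their values were seen. The members and lists were chosen with earlier results of these data known. Promoter windows are RefSeq's on GRCm38.p6, a build other than the table's, so no coordinate was joined to it. Chi-square per degree of freedom was at least 7.1 for every pair of libraries within a group, so no library was a copy of another. The table holds 0 columns of other samples. Some members of the lists are counted with their list and are not reported singly here.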

Additional observations from a re-analysis of the deposited data

Results flagged for a closer look

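Of 72 groups of values examined, 2 held a value far from the rest of its group of 6 by Dixon's test, which flags about 1 in 20 groups by chance. Library 15 of C3Hn:C57mt had 42.95% of its counts in its 6 most abundant features, against 20.07% to 28.34% in the other 5 libraries of that group. Library 23 of C3Hn:C3Hmt had a mean log2 CPM of 6.00 over the fibroblast markers, against 4.35 to 4.95 in the other 5 libraries of that group.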

How the results depend on the processing

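The count of called genes between C3Hn:C57mt and C3Hn:C3Hmt depended on the tool and on the L code. With the code as a covariate, the genotype difference rests on libraries 17 and 18 of C3Hn:C57mt, as it does among the L3 libraries. The 3 calls became 15 with DESeq2, 1 without a scaling factor, 1 with 24 libraries in the fit, 150 with the L code as a covariate, 63 among L3 libraries, 104 among those without library 23, 232 with the L code and without library 23 (chosen after seeing the data), and 0 with the L2 libraries of C3Hn:C57mt, and leaving out each library in turn gave 0 to 2. The L3 comparison had 278 calls with DESeq2 and 3 to 104 with a library left out; with library 17 or 18 out, the lone C3Hn:C57mt library was assumed to vary like the other group. L2 minus L3 had 331 with DESeq2, 365 with no filter on low counts and 5 to 193 with a library left out (5 without library 18, 193 without library 17). The difference between nuclei had 294 with DESeq2 and 0 in edgeR, the C57 nucleus comparison 35 with DESeq2 and 0 to 2 with a library left out, and the C3H titles 33 with DESeq2, 14 with no filter and 2 to 32 with a library left out (32 without 1 C3H_wt library). The cause of these changes was not tested. With a library left out, Ciart ran from 1.83 to 2.34, Prkcq from 0.88 to 1.07 and Cyfip2 from 0.58 to 0.69, with adjusted p of 0.00282 to 0.164, 0.0442 to 0.164 and 0.0261 to 0.164. Signs reversed for Nppa (-0.30 with the L code as a covariate and among L3 libraries, -0.38 in both without library 23, -0.10 to 0.26 with a library left out), Nppb (0.04 with the L2 libraries) and Acta1 (-0.06 among L3 libraries and -0.07 with the L code, both without library 23). With a library left out they also reversed for atrial (-0.31 to 0.20), smooth muscle (-0.07 to 0.05), neutrophil (-0.12 to 0.04), lymphocyte (-0.02 to 0.13) and erythrocyte markers (-0.01 to 0.41). No paired analysis was possible because the groups share no replicate number.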

Other observations

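Further genes of the interferon and antigen presentation lists had the same libraries on top. The interferon-induced GTPase genes Irgm2 and Iigp1 were at 5.39 and 6.05 log2 CPM in library 18 of C3Hn:C57mt and at most 3.72 and 4.77 in the other libraries of that group, against 7.38 and 7.75 in library 21 of C3Hn:C3Hmt and at most 3.72 and 4.67 in the others. B2m, the light chain of class I molecules, was at 8.80 in library 18, against 8.07 in library 21. H2-Aa, a class II chain, was at 3.91 in library 18 and 0.65 to 1.76 in the other C3Hn:C57mt libraries, against 2.09 in library 21 and 0.96 to 1.34 in the other C3Hn:C3Hmt libraries. The GTPases were thus higher in library 21 than in library 18, and B2m and H2-Aa higher in library 18.

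Among the cytosolic heat shock proteins 3 of 21 genes lay higher at an unadjusted p below 0.05, beside 3.95% of all genes: Bag3, a co-chaperone of the Z-disc (0.25, SE 0.108), Dnajb4 (0.19, SE 0.0884) and Hspa4l (0.19, SE 0.08). Hspa1b, the stress-induced HSP70 gene, lay lower (-1.03, SE 0.476), with 2.40 to 4.05 in C3Hn:C57mt, against 5.81 in library 23 and 1.69 to 4.04 in the other C3Hn:C3Hmt libraries. Without library 23 Hspa1b had -0.32 (unadjusted p = 0.343), and Bag3 (unadjusted p = 0.0618) and Hspa4l (0.0695) were no longer below that p. Cytosolic ribosomal protein genes had 0 of 46 at that p and a median log2 fold change of -0.03.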
